A study of Mus musculus with 3 samples.

Results

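The T cell receptor alpha-chain genes of mouse are described here: all 189 genes of the count table whose symbols start with Trav, Traj or Trac, of 31053 genes in all. They comprise 128 variable (Trav) segments, 60 joining (Traj) segments and the constant gene Trac. The cells were tumour-infiltrating T cells of C57BL/6 mice with subcutaneous MC38-Ova tumours, a colon carcinoma line, or B16-Ova tumours, a melanoma line, both made to carry ovalbumin. They were collected on day 14 by a sort for cells positive for TCRβ, CD3 and CD90.2 and negative for CD11b, marked with 1 hashtag for each tumour, and pooled into 1 droplet capture of the 5′ type. The labels name no genetic alteration of the mice, and the protocol on tumour growth names only MC38-OVA. How many mice were pooled under a hashtag is not stated, so each tumour is 1 pool without a replicate, no test of a tumour difference was possible, and every interval covers counting error only.

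The alpha chain is built in the thymus by joining 1 V segment to 1 J segment, after which the transcript is spliced to Trac. The V segment encodes the first and second loops that touch the antigen-presenting molecule, and the V-J junction encodes the third, CDR3. Both alleles can rearrange, so a T cell can carry a second alpha transcript, and every daughter of a T cell clone inherits the same segments. A few chains mark T cells of fixed specificity: in mouse, Trav11 joined to Traj18 marks invariant NKT cells, and Trav1 joined to Traj33 marks MAIT cells.

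All members lie on the plus strand of chromosome 14 (GRCm38, the mm10 build). The V exons of the segments on which the results turn are shown, 5′ to 3′, read from GRCm38 by the GENCODE vM21 annotation. Capitals run from the last in-frame cysteine codon to the end of the exon, where the germline part of CDR3 starts. Trav13-1 and Trav12-2 differed most between tumours in CD8 cells, Trav7-4 and Trav16n in CD4 cells, Trav12-1 and Trav8-2 were found together in the same cells, and Trav11 is the NKT segment. Trav8-2 is annotated as a pseudogene without a coding frame and is printed without capitals. Of Trav16n the last 300 bases are given. Traj18 and Traj33, the joining segments of the NKT and MAIT chains, are exons of their own.
Trav13-1 (chr14:53545247-53545525): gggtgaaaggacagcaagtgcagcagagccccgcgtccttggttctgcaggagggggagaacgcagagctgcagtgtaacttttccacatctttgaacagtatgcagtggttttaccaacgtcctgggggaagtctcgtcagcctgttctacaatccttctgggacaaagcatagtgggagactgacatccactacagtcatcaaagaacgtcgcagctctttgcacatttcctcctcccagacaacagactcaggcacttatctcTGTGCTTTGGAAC
Trav12-2 (chr14:53616623-53616914): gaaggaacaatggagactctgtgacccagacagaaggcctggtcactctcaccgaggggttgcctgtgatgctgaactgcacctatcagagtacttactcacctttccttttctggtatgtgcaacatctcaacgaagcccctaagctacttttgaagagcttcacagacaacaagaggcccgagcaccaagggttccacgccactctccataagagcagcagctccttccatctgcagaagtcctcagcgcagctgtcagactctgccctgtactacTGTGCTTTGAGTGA
Trav7-4 (chr14:53461447-53461738): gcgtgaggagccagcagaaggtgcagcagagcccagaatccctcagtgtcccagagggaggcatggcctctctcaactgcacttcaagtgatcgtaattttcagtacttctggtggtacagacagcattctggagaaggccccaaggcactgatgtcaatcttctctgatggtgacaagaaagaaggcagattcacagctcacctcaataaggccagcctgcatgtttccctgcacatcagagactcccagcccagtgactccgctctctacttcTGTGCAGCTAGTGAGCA
Trav16n (chr14:53351322-53351621): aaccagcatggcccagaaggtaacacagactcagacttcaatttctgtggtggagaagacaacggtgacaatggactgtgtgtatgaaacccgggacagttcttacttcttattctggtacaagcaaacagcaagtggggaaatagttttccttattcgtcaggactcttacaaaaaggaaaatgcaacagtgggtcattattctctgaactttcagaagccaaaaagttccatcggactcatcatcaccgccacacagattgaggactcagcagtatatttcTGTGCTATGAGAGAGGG
Trav12-1 (chr14:53538444-53538738): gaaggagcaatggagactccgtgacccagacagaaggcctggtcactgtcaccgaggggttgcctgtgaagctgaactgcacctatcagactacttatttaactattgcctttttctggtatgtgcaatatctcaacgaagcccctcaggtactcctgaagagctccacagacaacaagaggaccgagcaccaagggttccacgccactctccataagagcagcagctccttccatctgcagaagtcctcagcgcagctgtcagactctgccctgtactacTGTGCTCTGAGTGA
Trav8-2 (chr14:53738554-53738838): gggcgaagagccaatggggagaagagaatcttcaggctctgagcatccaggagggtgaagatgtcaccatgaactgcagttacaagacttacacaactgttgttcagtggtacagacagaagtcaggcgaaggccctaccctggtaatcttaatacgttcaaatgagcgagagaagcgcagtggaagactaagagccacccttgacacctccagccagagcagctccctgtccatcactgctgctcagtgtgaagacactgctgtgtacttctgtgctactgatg
Trav11 (chr14:53519569-53519859): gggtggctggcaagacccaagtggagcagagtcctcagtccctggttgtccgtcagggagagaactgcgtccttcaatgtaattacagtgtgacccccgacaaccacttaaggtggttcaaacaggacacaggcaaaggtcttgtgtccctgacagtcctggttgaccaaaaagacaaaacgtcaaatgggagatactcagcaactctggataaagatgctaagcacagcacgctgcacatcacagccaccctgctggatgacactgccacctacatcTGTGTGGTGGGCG
Traj18 (chr14:54200777-54200842): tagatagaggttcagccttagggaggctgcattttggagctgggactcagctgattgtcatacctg
Traj33 (chr14:54185358-54185414): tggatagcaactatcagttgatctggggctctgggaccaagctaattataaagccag

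Barcodes were kept from 500 detected genes upward and up to a mitochondrial share of 10%, which left 18429, of which 8407 were MC38-Ova cells and 6585 were B16-Ova cells. The other barcodes included 2388 with both hashtags and 630 with neither. MC38-Ova cells held 71527033 RNA UMIs (median 6289 per cell) and B16-Ova cells 61742125 (median 6121). Classes were set by raw UMIs. CD8 cells had at least 2 UMIs of Cd8a and Cd8b1 and none of Cd4 or Foxp3 (2544 MC38-Ova and 1792 B16-Ova cells). Treg cells had Foxp3 and no Cd8 UMI (960 MC38-Ova and 777 B16-Ova cells), and CD4 cells had Cd4 without Foxp3 or Cd8 (736 in MC38-Ova and 753 in B16-Ova). The fourth class, Fcer1g/Tyrobp cells, had at least 2 UMIs of the adaptor genes Fcer1g and Tyrobp and at least 2 of CD3 genes (1871 MC38-Ova and 1222 B16-Ova cells). It overlaps the others by construction: 452 MC38-Ova and 301 B16-Ova cells of it were also CD8 cells. T cell markers summed to 3131 to 4146 CPM (UMIs per 1000000 RNA UMIs) in every class. Markers of other cells moved with class and tumour: 4 melanoma markers summed to 28.4 CPM in MC38-Ova CD8 cells and 236 CPM in B16-Ova CD8 cells, and to 31.7 CPM in MC38-Ova CD4 cells and 322 CPM in B16-Ova CD4 cells, whereas in Treg cells they summed to 179 CPM in MC38-Ova and 31.5 CPM in B16-Ova. The 4 stromal markers summed to 239 CPM in MC38-Ova Treg cells and 3.48 CPM in B16-Ova Treg cells. The 7 macrophage markers summed to 335 CPM in MC38-Ova and 252 CPM in B16-Ova Fcer1g/Tyrobp cells. The part of such RNA in the results below was not tested.

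Over the cells of both tumours the Trav segments held 80999 UMIs and Trac 33315, whereas all 60 Traj genes were listed at 0. The annotated Traj genes are 29 to 72 bases long, and no statement on their use is drawn from these zeros. Of the Trav segments 42 of 128 were also at 0. In the mouse locus many V segments exist as near-identical copies, named with d and n. The 38 Trav without a single 90-base window of their own, that is, one found in no other alpha gene, together held 27 UMIs and none held more than 6. The 68 Trav with at least 50% unique windows held 68534. Across the 128 segments the rank correlation of uniqueness with UMIs was 0.483, a description over genes that share the locus and the libraries. A zero of a copied segment, such as Trav11d, is therefore uncertain. Of 20 Trav annotated as pseudogenes 15 were at 0, and Trav8-2 was the pseudogene with the most UMIs (1012).

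**Figure D1:**
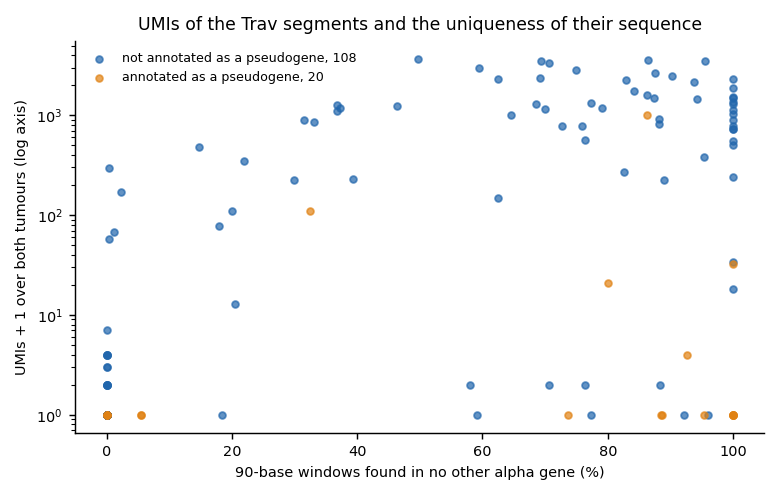
UMIs of each Trav segment over the cells of both tumours, plus 1, on a log axis, against the share of its 90-base windows found in no other alpha gene. Each point is 1 of 128 segments. Segments at 0% uniqueness all lie at 6 UMIs or fewer, and 15 of the 20 pseudogenes lie at 0 UMIs.

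Trac, which encodes the constant part of every alpha chain, stood between 216 and 320 CPM in all classes. A sum over cells cannot tell more cells with a transcript from more UMIs per cell. MC38-Ova CD8 cells had 231 CPM (95% interval 225 to 238) and B16-Ova CD8 cells 216 CPM (210 to 224), a ratio of 1.07 (1.02 to 1.11). In the other classes Trac CPM was lower in MC38-Ova. Treg cells had 278 CPM in MC38-Ova and 320 CPM in B16-Ova (ratio 0.868, 0.814 to 0.926). CD4 cells had 222 CPM in MC38-Ova and 293 CPM in B16-Ova (ratio 0.758, 0.693 to 0.828). Fcer1g/Tyrobp cells had 216 CPM in MC38-Ova and 248 CPM in B16-Ova (ratio 0.872, 0.835 to 0.910). Shares of cells with a Trac UMI were less clear. With cells thinned to equal depth, MC38-Ova minus B16-Ova was −3.97 percentage points (−9.18 to 1.28) in Treg cells. The difference was −5.68 (−11.58 to 0.28) in CD4 and −1.33 (−4.995 to 2.33) in Fcer1g/Tyrobp cells. These intervals include no difference, whereas CD8 cells had 3.86 (0.71 to 6.99). Without thinning, the differences in these shares were −4.97 points (−9.10 to −0.78) in Treg and −0.74 (−5.66 to 4.19) in CD4 cells. They were −3.30 (−6.42 to −0.11) in Fcer1g/Tyrobp and −2.67 (−5.29 to −0.025) in CD8 cells. As a background, 85 barcodes of other cell types were read. These barcodes had fewer than 2 CD3 UMIs and at least 20 UMIs of macrophage, melanoma or stromal markers. Their median depth was 42295 UMIs. In them Trac was at 2.98 CPM (1.43 to 5.48), and 11.8% had a Trac UMI. Among cells of the 4 classes 61.6% to 75.8% had one. Because the CD3 limit itself selects for little T cell RNA, this gap is a description only.

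A cell was given a Trav call when its leading segment had at least 2 UMIs and at least 2 times those of the next. Calls were made in 50.7% of MC38-Ova and 57.2% of B16-Ova CD8 cells, 47.6% of MC38-Ova and 55.9% of B16-Ova Treg cells, 45.1% of MC38-Ova and 54.6% of B16-Ova CD4 cells, and 45.1% of MC38-Ova and 45.3% of B16-Ova Fcer1g/Tyrobp cells. Of the 85 barcodes of other cell types, picked with fewer than 2 CD3 UMIs, 1.18% had a call. With every cell thinned to 3000 RNA UMIs the CD8 shares were 34.5% in MC38-Ova and 34.8% in B16-Ova, a difference of −0.34 percentage points (−3.34 to 2.65), over the 2309 MC38-Ova and 1667 B16-Ova cells that were deep enough. The Treg and CD4 differences remained below 0 after thinning. In Treg cells it was −10.87 points (−16.03 to −5.63), with 38.3% of MC38-Ova and 49.2% of B16-Ova cells called, and in CD4 cells −13.99 points (−19.77 to −8.07), with 37.2% of MC38-Ova and 51.2% of B16-Ova cells called. In all 68 Trav had a call, and 52 had at least 20 called cells.

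In CD8 cells the widest gaps between tumours, in percentage points, were those of Trav12-2 and Trav13-1. Trav12-2 was called in 119 of 1289 MC38-Ova cells, which is 9.23% (7.71 to 10.9), and in 29 of 1025 B16-Ova cells, which is 2.83%. Trav13-1 was called in 45 MC38-Ova cells, 3.49%, and in 137 B16-Ova cells, 13.4% (11.3 to 15.6). The differences were 6.40 percentage points (4.51 to 8.31) for Trav12-2 and −9.88 points (−12.26 to −7.61) for Trav13-1. In UMIs, Trav12-2 had 41.4 CPM in MC38-Ova and 13.4 CPM in B16-Ova CD8 cells, and Trav13-1 had 16.4 CPM in MC38-Ova and 50.2 CPM in B16-Ova CD8 cells. The intervals of both segments lie apart between the tumours on either measure.

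Of 42 Trav with at least 20 called CD8 cells, 7 were at least 2-fold higher in MC38-Ova and 6 at least 2-fold lower, a share of 30.95%. Besides Trav12-2, the higher ones were Trav3-1 (3.57% in MC38-Ova, 0.488% in B16-Ova), Trav5-4 (4.11% in MC38-Ova, 1.17% in B16-Ova), Trav6-1, Trav6-4, Trav7d-4 and Trav8-2. Trav8-2 was called in 27 MC38-Ova cells and in 0 of 1025 B16-Ova cells, which allows a share of up to 0.293%. The exact interval of the ratio of call shares starts at 5.43. The 0 holds for calls only, since 3 B16-Ova CD8 cells had at least 2 UMIs of Trav8-2 beside Trav12-1. The lower ones were Trav13-1, Trav1, Trav13n-1, Trav19, Trav4-4-dv10 and Trav7-1, of which the last 5 made up 0.388% to 1.16% of MC38-Ova and 1.46% to 2.73% of B16-Ova called cells. Trav13n-1 and Trav7d-4 share much sequence with copies (37.2% of windows unique for Trav13n-1 and 46.4% for Trav7d-4), so their counts are uncertain. When UMIs were compared in place of calls, 7 of 46 Trav were past a fold of 2 upward in MC38-Ova CD8 cells (1.91% of all 9758 genes) and 6 downward (1.77% of all genes). The median log2 ratio was 0.11 over these Trav and −0.00070 over all genes.

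In CD4 cells the contrast came from Trav7-4 and Trav16n, both lower in MC38-Ova. Trav7-4 was called in 11 of 332 MC38-Ova cells, 3.31%, and in 53 of 411 B16-Ova cells, 12.9% (9.81 to 16.5). Trav16n was called in 9 MC38-Ova cells, 2.71%, and in 46 B16-Ova cells, 11.2% (8.31 to 14.7). Together with Trav13-1 they were the 3 most used segments of B16-Ova CD4 cells, whereas no segment passed 5.42% in MC38-Ova CD4 cells, where Trav14-1 led. Of 9 Trav with at least 20 called cells, only Trav14-1 was 2-fold higher in MC38-Ova (18 called MC38-Ova cells and 9 B16-Ova cells). By UMIs 0 of 24 Trav were past a fold of 2 upward (1.2% of all genes) and 3 downward (0.443% of all genes). All Trav together were 0.739 of the B16-Ova level in MC38-Ova CD4 cells (0.701 to 0.779), and as a share of Trav UMIs 4 were higher and 2 lower in MC38-Ova. Trav7-4 has 49.7% and Trav16n 59.4% of its windows unique, so reads of either could in part belong to copies.

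In Treg cells, Trav3-3, the most used segment of MC38-Ova, was called in 27 of 457 MC38-Ova cells, 5.91% (3.93 to 8.48), and in 7 of 434 B16-Ova cells, 1.61%. Trav14-2, with 16 MC38-Ova and 7 B16-Ova cells, and Trav8n-2, with 7 MC38-Ova and 14 B16-Ova cells, were also 2-fold apart, with intervals of the difference that include 0. By UMIs 2 of 39 Trav were past the fold upward in MC38-Ova (2.06% of all genes) and 11 downward (0.95% of all genes), with a median log2 ratio of −0.73 over these Trav and −0.034 over all genes. All Trav together had 659 CPM in MC38-Ova and 986 CPM in B16-Ova Treg cells, a ratio of 0.668 (0.643 to 0.695), below that of Trac. Of Treg cells, 15.6% in MC38-Ova and 27.9% in B16-Ova had 2 or more Trav with at least 2 UMIs each, against 37.4% of barcodes with both hashtags. Fcer1g/Tyrobp cells had the highest shares of the 4 classes, 23.0% in MC38-Ova and 31.3% in B16-Ova. In CD8 cells they were 18.3% in MC38-Ova and 16.7% in B16-Ova, and in CD4 cells 11.4% and 12.5%. The part of droplets that hold 2 cells in these shares was not tested. When each segment was taken as a share of Trav UMIs, 4 were higher and 5 lower.

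Among Fcer1g/Tyrobp cells, Trav21-dv12 was called in 17 of 844 MC38-Ova cells, 2.01%, and in 30 of 554 B16-Ova cells, 5.42% (3.68 to 7.64). Trav13-2 was called in 26 MC38-Ova and 3 B16-Ova cells. Of 31 Trav with at least 20 called cells, 4 were 2-fold higher and 2 were 2-fold lower in MC38-Ova. By UMIs 4 of 47 Trav were past the fold upward (1.91% of all genes) and 5 downward (1.41% of all genes). Trav12-2 (6.99% in MC38-Ova, 5.42% in B16-Ova) and Trav13-1 (4.74% in MC38-Ova, 6.32% in B16-Ova) were among the 3 leading segments of both tumours in this class.

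**Figure D2:**
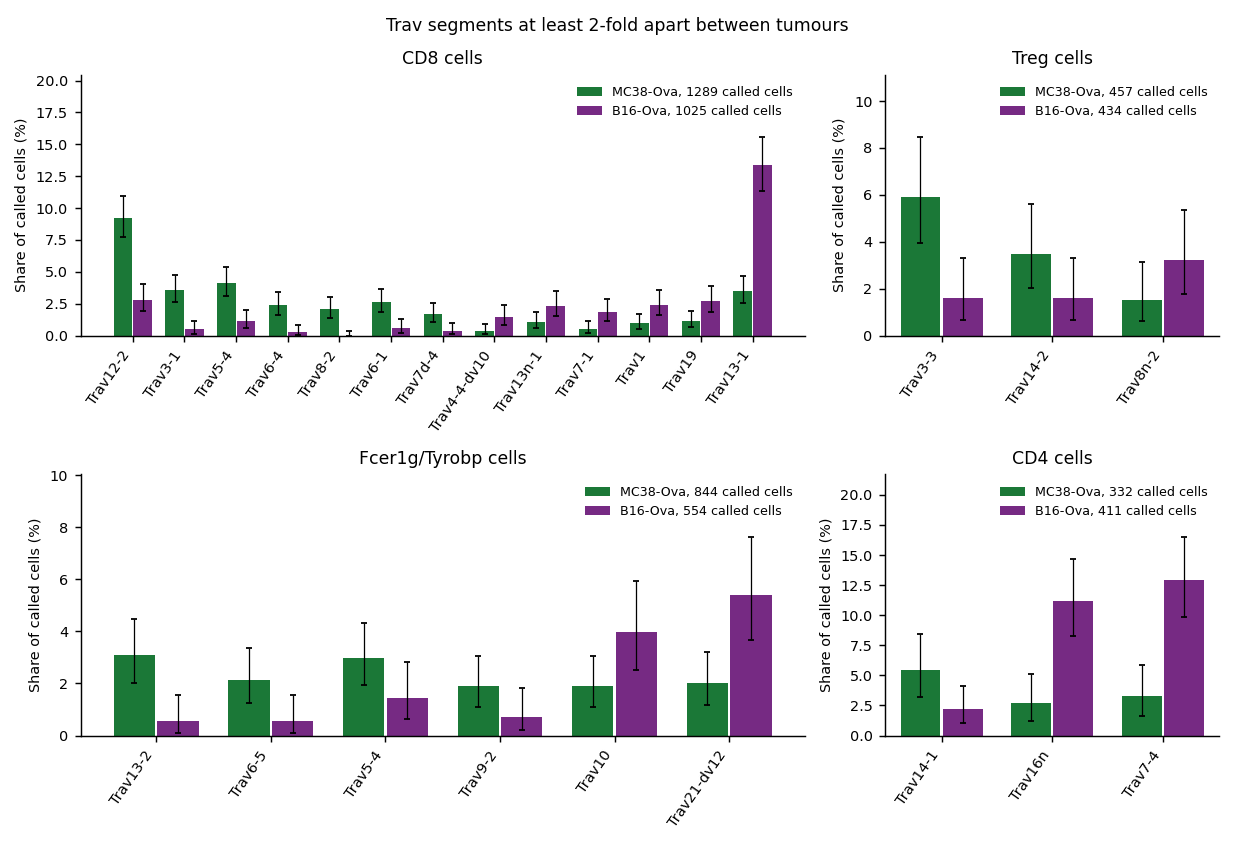
Share of cells with a Trav call (%) that carry each segment, for the segments at least 2-fold apart between tumours, by class. Green bars are MC38-Ova, purple bars B16-Ova, each 1 pool, with exact 95% binomial intervals. The tallest bars are Trav12-2 in MC38-Ova CD8 cells (9.23%), and Trav13-1 in CD8 (13.4%) and Trav7-4 and Trav16n in CD4 cells (12.9% and 11.2%) of B16-Ova.

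The beta chain of the same cells starts with a Trbv segment, which was called by the same rule. For each Trav the commonest Trbv of its carriers was taken, so the carriers' own share is a description. Among CD8 cells with Trav13-1 and a Trbv call, 1 of 37 MC38-Ova cells carried Trbv13-2, against 99 of 121 B16-Ova cells, which is 81.8% (73.8 to 88.2). In other called B16-Ova CD8 cells Trbv13-2 made up 7.09%. The Trav13-1/Trbv13-2 pair was 0.0907% of all MC38-Ova and 11.04% of all B16-Ova CD8 cells with both calls. Trav12-2 in MC38-Ova CD8 cells was different: its commonest partner, Trbv31, was found in 17 of 105 carriers, which is 16.2% (9.72 to 24.7), and the carriers used 17 Trbv.

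Other segments also had 1 leading partner. In MC38-Ova CD8 cells, 27 of 32 Trav6-1 carriers had Trbv12-1, 25 of 46 Trav5-4 carriers had Trbv31 and 22 of 42 Trav3-1 carriers had Trbv12-2. Of the 27 MC38-Ova CD8 cells called for Trav8-2, 23 had Trbv14, so most calls of this segment came from 1 Trav-Trbv pair. In B16-Ova CD4 cells, 23 of 30 Trav7-4 carriers and 19 of 32 Trav16n carriers had Trbv5, which 16.7% and 18.2% of the other called cells had. Each set of others includes the carriers of the other segment. Of the 46 Trbv5 cells among the others of Trav7-4, 19 were Trav16n carriers. Among the others of Trav16n, 23 of 50 Trbv5 cells were Trav7-4 carriers. In B16-Ova Fcer1g/Tyrobp cells, 16 of 23 Trav21-dv12 carriers had Trbv13-3, against 4.55% of the others. Pairs held by at least 5 cells made up 52.6% of MC38-Ova and 47.6% of B16-Ova CD8 cells with both calls. The share was lower in Fcer1g/Tyrobp cells (5.72% of 647 in MC38-Ova, 13.6% of 419 in B16-Ova), in CD4 cells (12.1% in MC38-Ova, 18.9% in B16-Ova) and in Treg cells (3.47% in MC38-Ova, 6.06% in B16-Ova), which also had fewer cells with both calls (317 MC38-Ova and 297 B16-Ova Treg cells, against 1102 MC38-Ova and 897 B16-Ova CD8 cells). A shared Trav and Trbv does not establish a clone, since no junction was read.

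**Figure D3:**
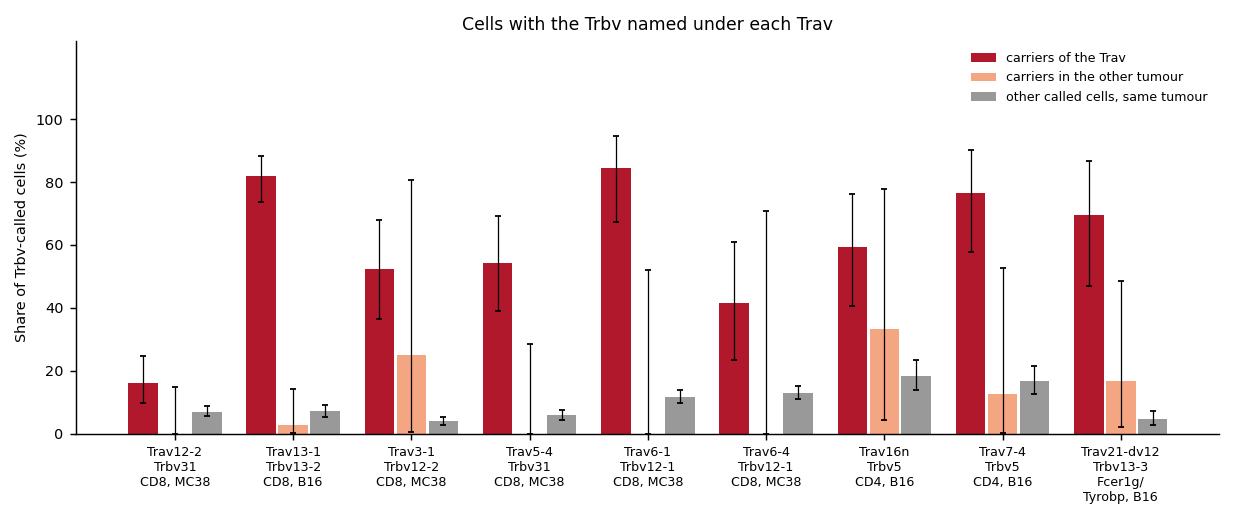
Share (%) of Trbv-called cells with the Trbv named under each Trav, for carriers of that Trav in the tumour named (red), carriers in the other tumour (light) and other called cells of the same tumour (grey), with exact 95% binomial intervals. The partner was chosen as the commonest among the red cells. Trav6-1 and Trav13-1 carriers stand above 80% and Trav12-2 carriers at 16.2%.

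With each Trav-Trbv pair of a class and tumour counted once, the tumour differences of the 6 leading segments were smaller. This count was chosen after the pairs were seen. Trav13-1 in CD8 cells came to 0.23 percentage points (−2.50 to 2.90) against −9.88 over all cells, Trav12-2 to 0.43 (−2.50 to 3.31) against 6.40, and Trav7-4 in CD4 cells to 0.00 (−4.18 to 4.18) against −9.58. Trav16n in CD4 cells came to −2.63 (−7.05 to 1.502), Trav21-dv12 in Fcer1g/Tyrobp cells to −0.90 (−3.72 to 1.41) and Trav3-3 in Treg cells to 2.48 (−1.28 to 6.39). All 6 intervals then included 0. Of the 25 segments at least 2-fold apart by calls, 1, Trav7d-4 in CD8 cells, had an interval without 0 (1.97, 0.333 to 3.94), and over all cells it came to −0.66 (−2.42 to 1.01) when joined with its copies. Counted this way no segment can hold more units than there are Trbv, so a wide gap narrows whatever its source, as that of Trav12-2 did although its MC38-Ova carriers used 17 Trbv, with Trbv31 in 16.2% of those with a Trbv call. A class also has fewer units (402 pairs in MC38-Ova and 369 in B16-Ova CD8 cells), and the intervals are wider. The chance that 2 called cells share a Trav was 3.14% in MC38-Ova and 3.87% in B16-Ova CD8 cells, and 2.54% in MC38-Ova and 4.41% in B16-Ova CD4 cells. Over pairs it was 1.99% in MC38-Ova and 2.04% in B16-Ova CD8 cells.

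**Figure D4:**
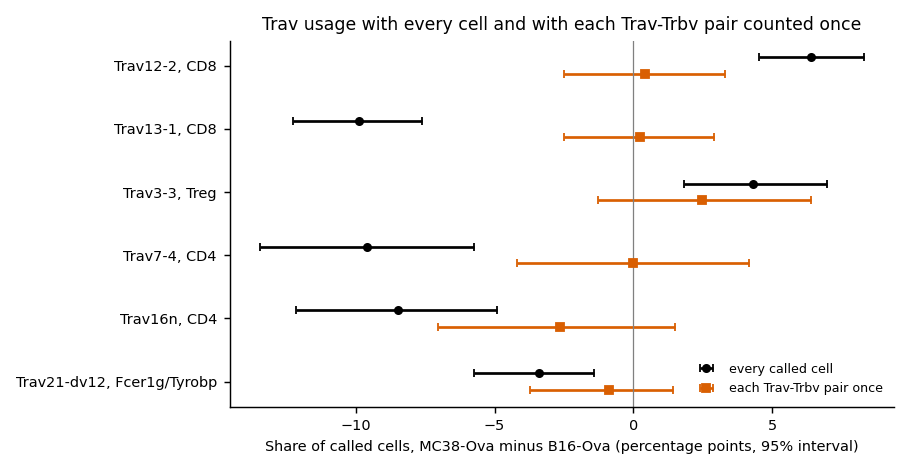
Difference in Trav usage, MC38-Ova minus B16-Ova in percentage points with 95% Newcombe intervals, with every called cell (black circles) and with each Trav-Trbv pair counted once (orange squares). The 6 circles lie off 0, from −9.88 to 6.40, and all 6 orange intervals include 0.

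RNA of the carriers was compared with that of other called cells of the same class and pool. Genes were named by the size of their ratio among genes found in at least 20% of the cells of the higher group, a limit set after the values were seen. B16-Ova CD8 cells with Trav13-1 had more Ccl5, a chemokine of effector T cells, at 18299 CPM in carriers and 5505 CPM in others (ratio 3.32, 3.27 to 3.37). The granzyme gene Gzmk was at 527 CPM in carriers and 180 CPM in others, and the transcription factor gene Maf at 93.2 CPM in carriers and 15.4 CPM in others (ratio 6.07, 4.75 to 7.76). S1pr1, whose receptor lets T cells leave tissues, was at 6.40 CPM in carriers and 37.4 CPM in others (ratio 0.171, 0.0775 to 0.329), and Dapl1 at 12.1 CPM in carriers and 87.1 CPM in others. A fold of 2 in either direction was passed by 2.71% of 7241 genes. The carriers also bound more of the lectin L-Pha, which recognises branched N-glycans, with a median of 782 tag UMIs in carriers (quartiles 514 and 1042) and 475.5 in others (268 and 835.5). Per 1000 RNA UMIs these were 80.1 in carriers and 54.5 in others, at median depths of 8686 and 7717 RNA UMIs.

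Carriers of other segments were compared in the same way. MC38-Ova CD8 cells with Trav12-2 had 298 CPM of Ccr7, the lymph node homing receptor, against 130 CPM in others (ratio 2.29, 2.03 to 2.58), and 124 CPM of Gzma against 230 CPM in others. A fold of 2 was passed by 1.57% of genes. Their L-Pha medians were 353 tag UMIs in carriers and 363 in others. MC38-Ova CD8 cells with Trav5-4 had 1688 CPM of Ifng, the gene of interferon gamma, against 619 CPM in others, and 567 CPM of the perforin gene Prf1 against 203 CPM in others (5.4% of genes past the fold). The shares of cells lay closer: an Ifng UMI was found in 58.49% of these carriers and 52.43% of others. A Prf1 UMI was found in 58.49% of them and 43.45% of others. In Trav3-1 carriers of MC38-Ova the chemokine gene Ccl4 was at 813 CPM, against 2989 CPM in others (8.06% of genes past the fold), and in Trav6-1 carriers at 721 CPM, against 2974 CPM in others (11% of genes past the fold). The share of cells with a Ccl4 UMI ran the other way, with 78.3% of Trav3-1 carriers against 62.6% of others, and 70.6% of Trav6-1 carriers against 62.9% of others. In Trav6-4 carriers 10% of genes passed the fold, in sums over 31 cells. B16-Ova CD4 cells with Trav7-4 had 97.5 CPM of the IL-7 receptor gene Il7r, against 424 CPM in others (ratio 0.230, 0.151 to 0.337). Both Trav7-4 and Trav16n carriers had more Klrc1, an inhibitory NK receptor gene, with 224 CPM against 105 CPM in others for Trav7-4 and 273 CPM against 100.2 CPM in others for Trav16n. Here too each set of others includes the carriers of the other segment. The fold was passed by 2.19% of 3066 genes for Trav7-4 and 3.42% for Trav16n. B16-Ova Fcer1g/Tyrobp cells with Trav21-dv12 had 1431 CPM of Gzmc against 306 CPM in others, and 20.1 CPM of Tyrobp, which in part defines the class, against 135 CPM in others, at median depths of 17750 and 9314 RNA UMIs. Gzmc was found in 20 of the 30 carriers, and 6.7% of genes passed the fold.

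A second alpha segment was seen in sets of cells with the same beta segment. In MC38-Ova CD8 cells, 75 cells (2.95%) had at least 2 UMIs of both Trav12-1 and Trav8-2, against 3 B16-Ova CD8 cells (0.167%). Of 69 of them with a Trbv call, 67 had Trbv14, which 10.1% of the class had. Trav6d-5 with Trav16n was found in 23 MC38-Ova and 0 B16-Ova CD8 cells, with Trbv29 in 20 of 21, and Trav3-3 with Trav14-3 in 17 MC38-Ova cells and 1 B16-Ova cell, with Trbv15 in 16 of 16. Trav13-1 with Trav5-4 was found in 0 MC38-Ova and 18 B16-Ova CD8 cells, with Trbv13-2 in 17 of 18. A Trav5-4 UMI was present in 28.5% of called B16-Ova CD8 carriers of Trav13-1 and in 3.04% of other called cells. A call, which needs a single leading segment, was made in 27 of the 75 cells with Trav12-1 and Trav8-2, 10 of the 23 with Trav6d-5 and Trav16n, 8 of the 17 with Trav3-3 and Trav14-3 and 15 of the 18 with Trav13-1 and Trav5-4.

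The cells with Trav12-1 and Trav8-2 had more Tox, a transcription factor gene of chronically stimulated T cells, at 166 CPM against 43.5 CPM in the other MC38-Ova CD8 cells (ratio 3.82, 3.11 to 4.66). Gzmk was at 641 CPM in them and 133 CPM in the others, found in 67 of the 75 cells. The chemokine genes Ccl3 (128 CPM in them, 776 CPM in the others) and Ccl4 (611 CPM in them, 3139 CPM in the others) were lower in summed UMIs. The shares of cells lay closer, with a Ccl3 UMI in 26.67% of them and 29.73% of the others. A Ccl4 UMI was found in 52.0% of them and 61.52% of the others. The median L-Pha of the cells with both segments was 703 tag UMIs, against 355 in the class. Their median PD-1 was 23 against 19, at 6865 RNA UMIs, against 6952.5 in the class. A fold of 2 was passed by 8.93% of 8699 genes.

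The smaller sets of cells with 2 alpha segments gave sums over few cells. All 23 cells with Trav6d-5 and Trav16n had a Gzmk UMI, at 671 CPM, against 143 CPM in the other MC38-Ova CD8 cells, and Ccl4 was at 222 CPM in them and 3093 CPM in the others (21.1% of genes past the fold). Their median L-Pha was 855 tag UMIs at 9097 RNA UMIs. The 17 cells with Trav3-3 and Trav14-3 had a median L-Pha of 318 at 9523 RNA UMIs, and 24.6% of genes passed the fold. The 18 B16-Ova cells with Trav13-1 and Trav5-4 had 92.6 CPM of Cenpe, a gene of cell division, against 24.3 CPM in the other B16-Ova CD8 cells (17.4% of genes past the fold), with a median L-Pha of 951.5 at 11193.5 RNA UMIs, against 472 in the class. The median depth of all CD8 cells was 6952.5 RNA UMIs in MC38-Ova and 7358 in B16-Ova, below that of each of these sets. The part of depth in these values was not tested.

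**Figure D5:**
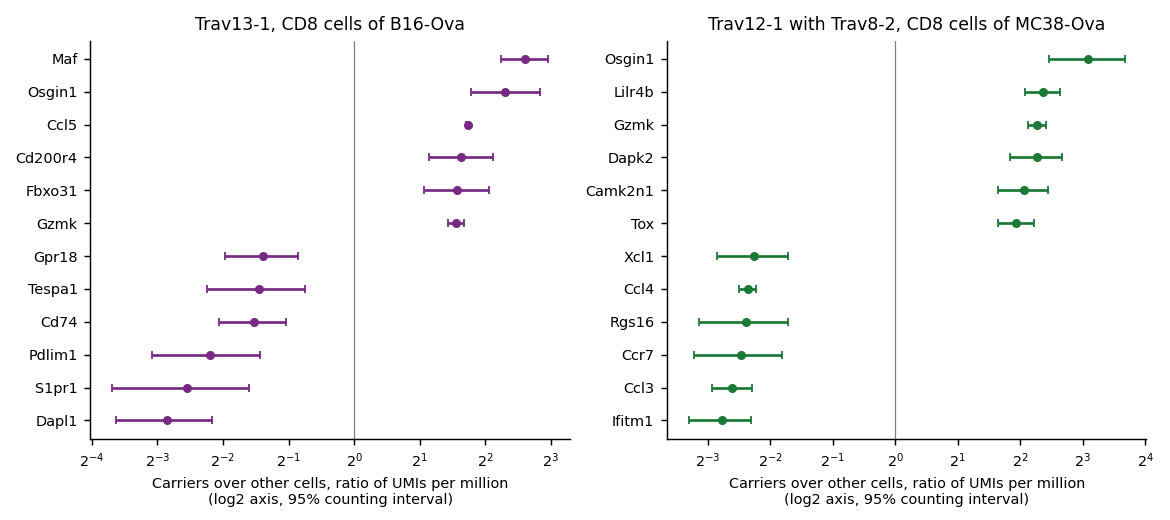
Ratio of CPM, carriers over other cells of the same pool, on a log2 axis with exact 95% counting intervals, for the 6 most raised and 6 most lowered genes of each set. Left, Trav13-1 carriers against other called CD8 cells of B16-Ova, with Maf at 6.07 and Dapl1 at 0.139. Right, cells with Trav12-1 and Trav8-2 against the other CD8 cells of MC38-Ova, with Gzmk at 4.81 and Ccl4 at 0.195.

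CD8 cells were set against CD4 cells in each tumour. By UMIs, 8 of 44 Trav were past a fold of 2 upward in CD8 over CD4 cells of MC38-Ova (1.74% of all genes) and 9 downward (3.17%). In B16-Ova 1 of 40 was upward (3.92% of all genes) and 12 downward (3.99%). The median log2 ratio of the Trav was −0.11 in MC38-Ova (−0.08 over all genes) and −0.62 in B16-Ova (−0.11 over all genes). In B16-Ova, Trac in CD8 cells was 0.738 of its CD4 level (0.689 to 0.790). As a share of Trav UMIs, 10 were upward and 7 downward in MC38-Ova, and 11 upward and 8 downward in B16-Ova. Of 38 Trav tested in both tumours, Trav4-3, Trav4-4-dv10, Trav8-1 and Trav9-1 were downward in both. They are 44.4% of the MC38-Ova list and 33.3% of the B16-Ova list. None was upward in both, and the upward list of B16-Ova held only 1. The overlap over all genes was not computed. Trav4-4-dv10, which can also join delta segments, was called in 0.388% (0.126 to 0.903) of CD8 and 4.82% (2.78 to 7.71) of CD4 cells of MC38-Ova. In B16-Ova it was called in 1.46% (0.821 to 2.40) of CD8 and 4.38% (2.62 to 6.83) of CD4 cells. Treg cells had 5.25% in MC38-Ova and 3.92% in B16-Ova. By calls the other segments were less clear. Trav8-1 was called in 1.71% (1.07 to 2.57) of CD8 and 3.01% (1.45 to 5.47) of CD4 cells of MC38-Ova, and in 0.976% (0.469 to 1.79) of CD8 and 1.95% (0.844 to 3.799) of CD4 cells of B16-Ova, with intervals that overlap in both. The intervals of Trav4-3 and Trav9-1 overlapped in B16-Ova, where Trav4-3 was called in 1.56% of CD8 and 2.19% of CD4 cells and Trav9-1 in 0.780% of CD8 and 1.70% of CD4 cells. The CD4 carriers of Trav4-4-dv10 used 8 Trbv in MC38-Ova and 5 in B16-Ova.

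Treg and Fcer1g/Tyrobp cells were set against CD4 cells in the same way. In Treg cells 2 of 33 Trav were upward (2.45% of all genes) and 3 downward (1.27%) in MC38-Ova, and 7 of 33 upward (3.23%) and 3 downward (2.02%) in B16-Ova. Trav4-3 was downward in both. In Fcer1g/Tyrobp cells 2 of 41 were upward (2.5%) and 9 downward (2.09%) in MC38-Ova, and 4 of 40 upward (3.63%) and 11 downward (2.33%) in B16-Ova. As a share of Trav UMIs the balance of Fcer1g/Tyrobp cells was different, with 4 upward and 4 downward in MC38-Ova and 8 upward and 4 downward in B16-Ova. Of 36 Trav tested by UMIs in Fcer1g/Tyrobp cells of both tumours, Trav14-1, Trav19, Trav4-3, Trav4-4-dv10 and Trav8-1 were downward in both. Trav12-1 was upward in both. For neither class was the overlap over all genes computed, so these overlaps stand without a background. All of these comparisons are set against the same CD4 cells of each tumour.

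The list of receptor subunits, signalling genes and other receptor constant genes held 23 genes. Of these, 17 were measurable in CD8 cells, of which 1, Tcrg-C4, a constant gene of the gamma chain, was past a fold of 2 (7.64 CPM in MC38-Ova, 2.55 CPM in B16-Ova). In Fcer1g/Tyrobp cells 1 of 19, Trdc, the constant gene of the delta chain, was past it (4.28 CPM in MC38-Ova, 1.33 CPM in B16-Ova). None of 15 was past it in Treg cells and none of 15 in CD4 cells. Over all genes, upward and downward, the fold was passed by 1.91% and 1.77% in CD8 cells and 1.91% and 1.41% in Fcer1g/Tyrobp cells. It was passed by 2.06% and 0.95% in Treg cells and by 1.2% and 0.443% in CD4 cells. A count of 0 or 1 in a list this short cannot be set apart from those shares. In CD8 over CD4 cells of MC38-Ova, 2 of 17 were past the fold upward (1.74% of all genes) and 1 downward (3.17%). In those of B16-Ova, 1 of 16 was upward (3.92% of all genes) and 3 downward (3.99%). Tcrg-C2, another gamma constant gene, was upward in both (13.5 CPM in CD8 and 4.29 CPM in CD4 cells of MC38-Ova, 15.2 CPM in CD8 and 2.48 CPM in CD4 cells of B16-Ova). Cd5, an inhibitory receptor gene of T cells, was downward in both (164 CPM in CD8 and 338 CPM in CD4 cells of MC38-Ova, 133 CPM in CD8 and 426 CPM in CD4 cells of B16-Ova).

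Trav11, the NKT segment, was rare. Among Fcer1g/Tyrobp cells it had a UMI in 10 of 1871 MC38-Ova cells, 0.534% (0.257 to 0.981), and in 16 of 1222 B16-Ova cells, 1.31% (0.750 to 2.12). The CD8, Treg and CD4 classes had 2 or 3 such cells each per tumour, and the 85 barcodes of other cell types had 0, which allows a share of up to 3.53%. Most held a single UMI, so a call was made in 1 Fcer1g/Tyrobp cell of each tumour. Trav11 has 0.394% unique windows, and its V exon matched that of Trav11d, which is listed at 0, in all 290 bases compared. Reads of the pair cannot be told apart, and values of Trav11 are uncertain for that reason.

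Over both tumours 49 cells had a Trav11 UMI, and genes linked to NKT cells were read in them. Zbtb16, which encodes the PLZF factor of innate-like T cells, was found in 30.6% of them (18.2 to 45.4) and in 1.83% of cells without Trav11 RNA. Klrb1c, which encodes NK1.1, was found in 53.1% of them (38.3 to 67.5) and in 9.70% of the others. Within Fcer1g/Tyrobp cells, which held 26 of the 49, the Klrb1c shares were 53.8% (33.4 to 73.4) with a Trav11 UMI and 35.5% without, and in MC38-Ova alone 40.0% of 10 cells with it and 39.6% without. Zbtb16 there was found in 34.6% (17.2 to 55.7) with a Trav11 UMI and in 2.71% without. Other genes of the NKT list did not all stand apart: Slamf1 was found in 22.4% (11.8 to 36.6) of the 49 cells and in 28.7% of the others, and Il2rb in 83.7% (70.3 to 92.7) of the 49 and in 82.3% of the others. Their median depth was 5089 RNA UMIs, against 6219 in the others. Of 43 with a Trbv call, 20 had Trbv13-2 (46.5%, 31.2 to 62.4) and 7 had Trbv29, the usual mouse NKT partners among others, which 11.5% and 3.72% of the others had. Traj18 was listed at 0, so the invariant chain itself was not seen.

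Trav1, the MAIT segment, is also used by conventional T cells, and 305 cells had a UMI of it. Cd8a or Cd8b1 was found in 70.8% of them and in 61.2% of the others, and 38 MC38-Ova and 51 B16-Ova cells with it were of the CD8 class. Zbtb16 was found in 7.54% of them (4.84 to 11.1) and in 1.81% of the others. Their median depth was 8436 RNA UMIs, against 6165 in the others. The beta segments Trbv13-3 and Trbv19, used by mouse MAIT cells, were called in 4.13% and 5.96% of them and in 5.28% and 7.47% of the others.

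Segments named with dv can also be used in delta chains, whose transcripts hold the delta constant gene Trdc. A Trdc UMI was found in 28 of 815 cells called for a dv segment, 3.44% (2.30 to 4.93), and in 41 of 6389 cells called for other segments, 0.642% (0.461 to 0.870). Trav15-1-dv6-1 had Trdc in 6 of 13 cells and Trav13-4-dv7 in 10 of 93, 10.8% (5.28 to 18.9). Trav6-7-dv9, the most used of them, had it in 1 of 344 cells. The sort took TCRβ-positive cells, and the summed gamma-delta marker level was at most 39.7 CPM in any class.

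By position, most calls fell on the V segments nearest to Trac. The block from the end of the n copies to Trac gave 70.9% of MC38-Ova and 71.3% of B16-Ova CD8 calls, and 76.2% of MC38-Ova and 66.4% of B16-Ova CD4 calls. The block of n copies gave 9.04% of MC38-Ova and 17.3% (13.7 to 21.3) of B16-Ova CD4 calls, and Trav16n lies in it. Copies that share all their sequence are hardly counted: 16 of the 34 n copies and 20 of the 39 d copies were at 0 UMIs, against 5 of the 47 segments nearest to Trac, and the part of this in the shares was not tested.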

How the data were processed

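RNA, hashtags and antibody tags were read in 1 capture of pooled cells. The authors deposited raw UMI counts per barcode, made with Cell Ranger 3.1.0 on mm10 and handled in R 3.6.1 and Seurat 3.1.0 per the submitters' processing notes. Version 3.0.2 stands in the matrix, per the file headers. Annotation release and doublet removal are not given in the sources used here, and the receptor library was not analysed here. The smaller hashtag of a cell had to be exceeded at least 3 times by the larger, which needed at least 150 UMIs. This replaces no doublet caller, so 2 cells of 1 pool in a droplet remain. Summed counts of classes were compared as CPM ratios with exact conditional 95% intervals, for genes with at least 100 UMIs in both sums together. Shares have Clopper-Pearson intervals and differences Newcombe intervals. PCR reads were collapsed by molecular identifiers, but cells of 1 clone share segments, so intervals are too narrow for mice. Exact intervals and calls were run on simulated data with independent UMIs and 1 distinct true segment per cell. Those runs held no UMIs bunched in few cells, no near-identical copies and no second alpha segment, so they do not test these conditions. All 189 gene IDs matched GENCODE vM21. The text names Trac, Trav11, Trav11d, Trav1, Traj18, Traj33, the 3 most used Trav of a class in either tumour, and Trav with at least 20 called cells and shares 2-fold apart. Members, classes and lists were chosen with earlier results of these data known. Trbv partners, segments found together and carrier genes (at least 20 CPM on average, in at least 20% of cells of the higher side) were chosen after values were seen. Joint use of Trav with Traj was planned and could not be made. Analyses used Python 3.11.15, numpy 2.4.6, pandas 2.3.3 and scipy 1.17.1.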

Additional observations from a re-analysis of the deposited data

Results flagged for a closer look

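Trav3-1 stood on opposite sides of a fold of 2 in the tumours when CD8 cells were set against CD4 cells. In MC38-Ova its level was 18.2 CPM in CD8 and 8.34 CPM in CD4 cells, a ratio of 2.19 (1.55 to 3.19). In B16-Ova it was 3.13 CPM in CD8 and 13.2 CPM in CD4 cells, a ratio of 0.237 (0.158 to 0.357). The difference between the tumours was not tested, since each tumour is 1 pool. The CD8 sums held 382 Trav3-1 UMIs in MC38-Ova and 54 in B16-Ova, and 22 of 42 MC38-Ova CD8 carriers with a Trbv call had Trbv12-2.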

How the results depend on the processing

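No paired analysis was possible because each tumour is 1 pool of cells. Joint Trav and Traj pairs, and Traj use at 2 UMIs, were not run, since every Traj was listed at 0. For the class-wide results and the 6 leading segments, 112 alternatives left the main value within its interval or within 1.5 times. Of the rest, 41 moved it further and 1 turned its direction. For the other segments at least 2-fold apart by calls, 144 stayed within these limits, 6 moved further and 2 turned direction. With each Trav-Trbv pair counted once (added after seeing the data), differences in percentage points were 0.23 for Trav13-1 and 0.43 for Trav12-2 in CD8 cells, 0.00 for Trav7-4 and −2.63 for Trav16n in CD4 cells, −0.90 for Trav21-dv12, and −0.089 for Trav6-1. The shared-Trav chance was then 1.99% (MC38-Ova CD8), 2.04% (B16-Ova CD8) and 2.11% (B16-Ova CD4). With copies joined Trav7d-4 in CD8 cells came to −0.66 points. Calls at 1 UMI gave −3.08 points for the CD8 call share, which was −0.34 after thinning, and 4.41 for Trav12-2. Calls at 3 UMIs and 3 times the next gave −13.98 for Trav7-4. Thinned, the Trac ratio of Fcer1g/Tyrobp cells was 0.928. The difference in cells with any Trav11 UMI was −0.77 points, and by calls −0.028. Counts of Trav past the fold, MC38-Ova over B16-Ova, were as follows. At 20 UMIs they were 12 lower in CD8, 18 lower in Treg, 3 higher and 9 lower in CD4 and 9 lower in Fcer1g/Tyrobp cells. As a share of Trav UMIs they were 4 higher and 5 lower in Treg, 4 higher in CD4 and 3 lower in Fcer1g/Tyrobp cells. At a fold of 1.5 they were 14 higher and 10 lower in CD8, 4 and 20 in Treg, 4 and 6 in CD4 and 13 lower in Fcer1g/Tyrobp cells. Over CD4 at 20 UMIs they were 15 lower in MC38-Ova and 3 higher in B16-Ova CD8, 8 higher and 5 lower in MC38-Ova and 14 higher in B16-Ova Treg, and 6 higher and 14 lower in MC38-Ova Fcer1g/Tyrobp cells. Over CD4 as a share of Trav UMIs they were 11 higher in B16-Ova CD8, 4 higher and 4 lower in MC38-Ova, and 8 higher and 4 lower in B16-Ova Fcer1g/Tyrobp cells. Shares of all genes past the fold were not computed under these other settings, so these counts stand without a background. The causes were not tested. With 332 to 1289 called cells per class and tumour, segments under about 20 cells could not be compared.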
